A study of Xenopus laevis with 12 samples.

Results

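The SoxE genes sox8, sox9 and sox10 encode related transcription factors of the Sox family. They were taken by name, as every row called sox8, sox9 or sox10 apart from the suffix .L or .S. Xenopus laevis is allotetraploid, and each of the 3 genes has 2 copies, called homeologs, on the longer (.L) and shorter (.S) chromosome of a pair. This gave 6 rows of 18206 in the table for stage 14 and the same 6 of 18556 in the table for stage 17, and all 6 passed the authors' filter on low values at both stages. Wild-type embryos had been injected at the 4-cell stage, in the right dorsal blastomere, with 60 ng of morpholino, an antisense oligonucleotide analogue, and raised to stage 14 or 17 of the Nieuwkoop and Faber series. RNA came from tissue labelled neural crest. The 12 samples form 4 groups of 3: embryos with the miR-196a morpholino, which blocks the microRNA miR-196a, and embryos with a mismatch morpholino, a control with altered bases, at each stage. A morpholino acts in the injected cells and their descendants. Whether a sample pooled several embryos or clutches is not given in the sources used here, so p-values measure the spread between these samples, which may be technical.

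Values come from the authors' deposited tables, which compare both arms at each stage and list for every gene its normalised count averaged over the samples, the log2 fold change, the standard error (SE) of that change and the adjusted p-value. Single samples and the level of miR-196a were not analysed here, so replicate error enters through the SE alone. The tables do not record which arm is the numerator of the fold change. Comparisons between stages take it to be the same arm at both, which is not recorded either. Signs are given as deposited: a negative value means a lower level in the numerator arm, so that SoxE genes would be lower with the miR-196a morpholino if that arm is the numerator, and lower with the mismatch morpholino if it is not. The level of each arm follows from the average and the fold change if both arms have the same size. A level of 3 normalised counts or less was regarded as a floor. Where a fold or ratio is given as at least a value, the arm under the floor was set to it. Such a bound takes no account of sampling error, so the true fold may be smaller.

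SoxE proteins bind DNA through a conserved domain, the HMG box, and act in pairs or with partner factors. In Xenopus embryos sox8 comes on first in the prospective neural crest, sox9 follows, and sox10 comes on later, as the crest is specified and prepares to migrate. Sox9 is known for driving cartilage genes and for early crest formation, and Sox10 for pigment cells, glia and autonomic neurons. All 3 are also expressed in the otic placode, which forms the inner ear. The stages sampled fall in neurulation, when these genes are being switched on at the border of the neural plate.

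An adjusted p-value under 0.05 was the threshold throughout. By the authors' deposited tables, 8.68% of the 17088 genes tested passed it at stage 14 and 9.96% of the 16965 at stage 17. Negative changes past it made up 5.62% and 5%, and positive ones 3.06% and 4.96%. The median log2 fold change of all genes tested was 0.02 at stage 14 and -0.003 at stage 17 per the authors' deposited tables. The batch label repeats the stage, so a batch effect and the stage cannot be told apart. In whole tissue, fewer cells of a type and less RNA per cell cannot be told apart either.

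At stage 14 all 6 SoxE genes were lower in the numerator arm, and all 6 passed the threshold, against 8.68% of all genes tested. Their median log2 fold change was -3.52 per the authors' deposited table. The arms of each gene were 6-fold or more apart, and the gap was widest for sox10, the last of the 3 to come on.

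The early gene sox8 stood at 338 normalised counts in the numerator arm and 3758 in the denominator arm for sox8.L, an 11.1-fold gap. Its log2 fold change was -3.47 (SE 0.46; authors' adjusted p = 1.09e-11) per the authors' deposited table. The weaker copy sox8.S was at 13.8 against 163, an 11.8-fold gap. The authors' deposited table gave it -3.56 (SE 0.80; authors' adjusted p = 3.00e-04). Both copies of sox8 thus had nearly the same relative change at very different read numbers.

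For sox9 the more abundant row was sox9.S, at 989 against 8284 normalised counts, 8.38-fold apart. Its log2 fold change per the authors' deposited table was -3.07 (SE 0.35; authors' adjusted p = 5.42e-16), and by p-value it ranked number 21 of the 17088 genes tested. The copy sox9.L was at 173 against 1052, 6.08-fold apart. The authors' deposited table gave it -2.60 (SE 0.44; authors' adjusted p = 3.73e-07). The sox9 copies had the narrowest intervals of the family at this stage, -3.74 to -2.39 for sox9.S and -3.47 to -1.74 for sox9.L (95%).

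The late gene sox10 was barely detected in the numerator arm at stage 14. For sox10.L that arm stood at 4.17 normalised counts, just above the floor, against 133 in the denominator arm. The authors' deposited table gave a log2 fold change of -4.99 (SE 1.14; authors' adjusted p = 4.29e-04), with an interval from -7.23 to -2.76. For sox10.S the numerator arm stood at 1.40 normalised counts, under the floor, against 222, so its level was lower there by a factor of at least 74 (adjusted p = 1.99e-07 per the authors' deposited table). Because so few reads lie behind the lower arm, the size of the sox10 change at stage 14 is known less well than its direction.

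**Figure D1:**
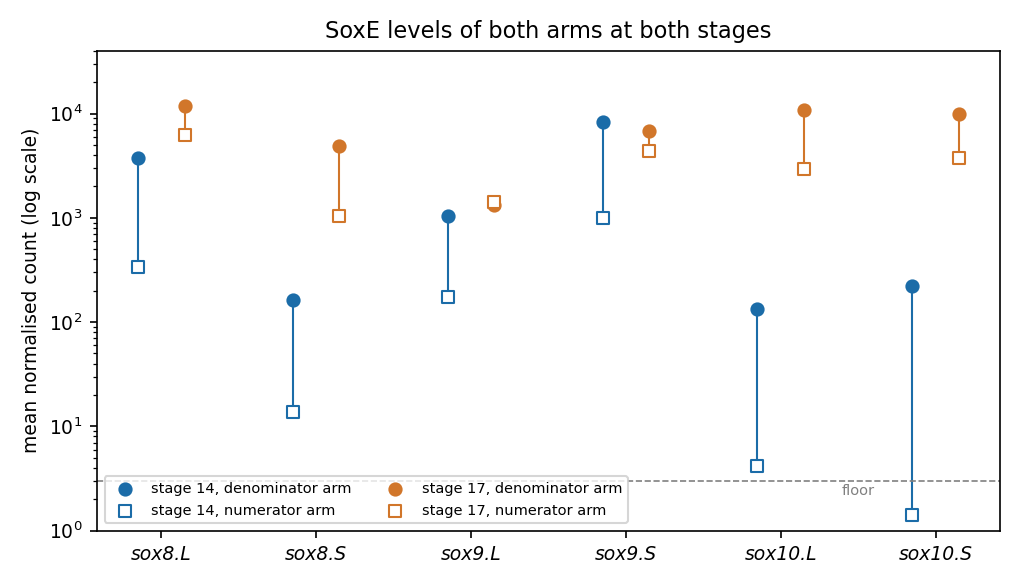
Mean normalised count (log scale) of each SoxE gene in the denominator arm (circles) and the numerator arm (squares) at stage 14 (blue) and stage 17 (orange), computed from the authors' deposited tables. A line joins the arms of a stage and the dashed line marks the floor of 3. The lines are long for all 6 genes at stage 14, and at stage 17 the arms of sox9.L nearly coincide at 1416 and 1333.

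At stage 17 the copies of sox10 alone passed the threshold, 2 of 6 against 9.96% of all genes tested, both negative. The median over the 6 genes was -1.16 per the authors' deposited table.

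Both copies of sox10 were now abundant in each arm. For sox10.L the arms were at 2967 and 10870 normalised counts, a 3.66-fold gap, and the log2 fold change per the authors' deposited table was -1.87 (SE 0.42; authors' adjusted p = 3.28e-04). For sox10.S they were at 3778 and 9864, a 2.61-fold gap. The authors' deposited table gave it -1.38 (SE 0.45; authors' adjusted p = 0.0284). The lower arm of sox10 at this stage thus held many more reads than the higher arm at stage 14.

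Neither copy of sox8 passed the threshold at stage 17. The authors' deposited table gave sox8.S a log2 fold change of -2.22 (SE 0.85; authors' adjusted p = 0.0762), with arms at 1044 and 4875 normalised counts. For sox8.L it gave -0.93 (SE 0.92; authors' adjusted p = 0.637), with arms at 6171 and 11790 and an interval from -2.73 to 0.86. The fold change of sox8.S was larger in size than that of either sox10 copy. With these errors, sox8.L would have needed a log2 fold change of about 2.59 in size to pass and sox8.S about 2.40, so that smaller changes of sox8 were not detectable.

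The arms of sox9 lay close together at stage 17. The authors' deposited table gave sox9.S a log2 fold change of -0.63 (SE 0.42; authors' adjusted p = 0.414), with arms at 4393 and 6790 normalised counts. For sox9.L it gave 0.09 (SE 0.38; authors' adjusted p = 0.940), with arms at 1416 and 1333. Their intervals, -1.44 to 0.19 and -0.65 to 0.82, leave out changes of the size measured for the same copies at stage 14.

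**Figure D2:**
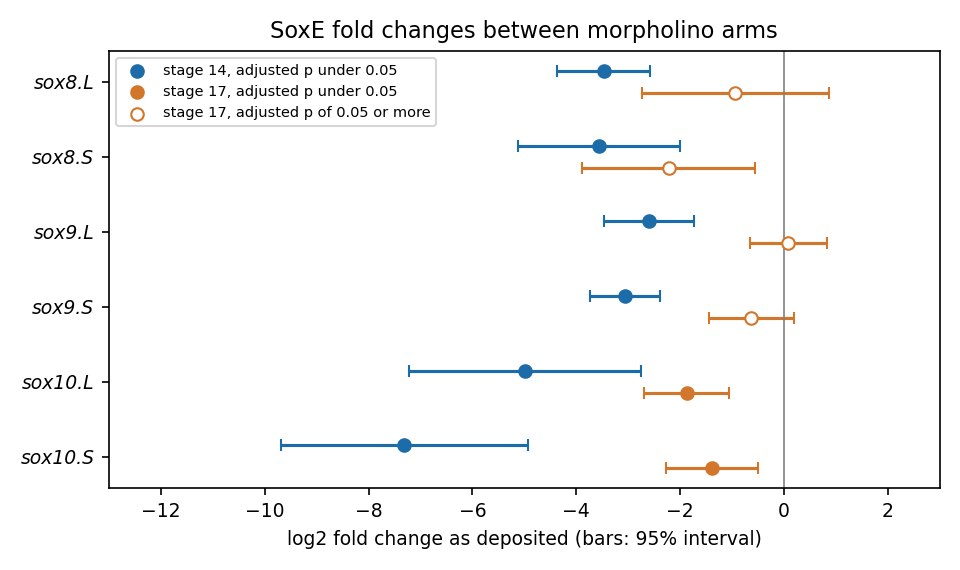
Log2 fold change of each SoxE gene with its 95% interval at stage 14 (blue) and stage 17 (orange), from the authors' deposited tables; filled points have an adjusted p-value under 0.05. All 6 stage 14 intervals lie below 0, and at stage 17 those of sox8.L, sox9.L and sox9.S include 0.

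The change between stages was tested directly, as the difference of the log2 fold changes over the root of their summed squared SEs, with a two-sided normal p-value adjusted by Benjamini-Hochberg over the 16194 genes tested at both stages. The test takes the errors of both stages as independent and the numerator as the same arm at both stages. The threshold was passed by 1.51% of the genes tested at both stages, and by 1.3% with a more positive value at stage 17. It was passed by 3 of the 6 SoxE genes, each time with a less negative value at stage 17. Both copies of sox9 were among them. The difference was 2.69 (SE 0.58) for sox9.L, with an adjusted p of 9.96e-04, and 2.44 (SE 0.54) for sox9.S, with an adjusted p of 0.00171, in this test on the SEs of the authors' DESeq2 tables.

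For sox10.S the difference was 5.93 (SE 1.30), with an adjusted p of 0.00138 in the same test on the DESeq2 tables. With its lower arm at stage 14 set to the floor, the difference was 4.83. For sox10.L it was 3.12 (SE 1.22) and did not pass, with an adjusted p of 0.274. The sox8 differences were 2.54 (SE 1.03) for sox8.L, with an adjusted p of 0.311, and 1.34 (SE 1.16) for sox8.S, with an adjusted p of 0.891, in this test on the DESeq2 tables. The interval for sox8.S, -0.94 to 3.63, holds 0 and also the value of sox9, so that the table neither shows a difference between stages for this copy nor bounds it closely.

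**Figure D3:**
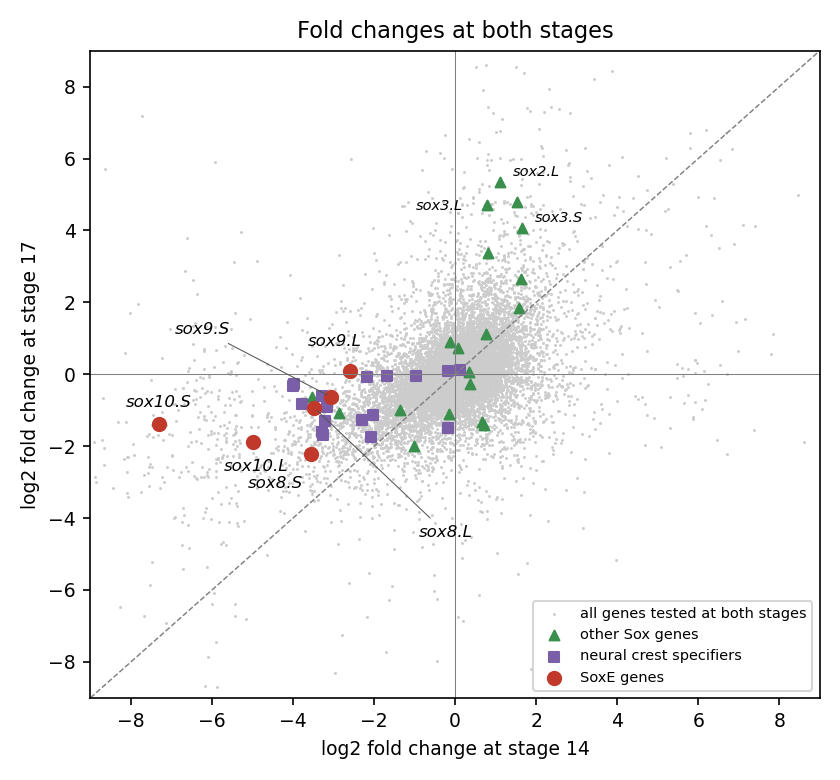
Log2 fold change at stage 14 (horizontal) and stage 17 (vertical) of genes tested at both stages, from the authors' deposited tables, with SoxE genes in red, neural crest specifiers in purple and other Sox genes in green; axes are limited to 9 on either side and the dashed line marks equal changes. The SoxE genes lie left of 0 and above the dashed line, while sox2.L, sox3.L and sox3.S lie high on the positive side at stage 17.

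Levels also differed between stage 14 and stage 17, most of all for sox10. In the denominator arm sox10.L went from 133 to 10870 normalised counts, 81.9 times as many, and sox10.S from 222 to 9864, 44.4 times as many. Among the 11886 genes with a mean of at least 50 normalised counts at both stages, 0 had a larger ratio than sox10.L and only sox10.L had a larger ratio than sox10.S. The copy sox8.S went from 163 to 4875, 29.9 times as many, and 4 genes had a larger ratio. The tables were normalised separately and these ratios carry no test. They also take the denominator to be the same arm at both stages. The median ratio of the 11886 genes was 0.935, and 5% of them lay above 2.28.

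The other SoxE rows changed less in the denominator arm. The level of sox8.L there was 3.14 times as high at stage 17, from 3758 to 11790. That of sox9.L was 1.27 times as high, and that of sox9.S 0.820 times as high, from 8284 to 6790. The denominator arm thus had sox9 near its stage 17 level already at stage 14, whereas sox10 was still far below its own.

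In the numerator arm the ratios were larger, and their order was the same apart from the copies of sox10. Those copies changed places, but so few reads lay behind them at stage 14 that their order is uncertain. From stage 14 to 17 sox9.S went from 989 to 4393 normalised counts, a ratio of 4.44, and sox9.L from 173 to 1416, a ratio of 8.18. For sox8.L the ratio was 18.3 and for sox8.S 75.7. For sox10.L it was 712, and for sox10.S, whose stage 14 value lay under the floor, at least 1259. In both arms the levels of stage 17 were above those of stage 14, except for sox9.S in the denominator arm.

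The homeologs of a gene could be compared within each table, because both copies were measured in the same libraries. Their log2 fold changes had the same sign for each of the 3 genes at stage 14, and for sox8 and sox10 at stage 17, where 63.5% and 67.7% of all pairs tested did so at the respective stage. The .L minus .S difference at stage 14 was 0.09 for sox8, 0.46 for sox9 and 2.32 for sox10. With the arm of sox10.S under the floor set to it, the last value was 1.22. At stage 17 the difference was 1.29, 0.72 and -0.49. Each of these 6 differences had a 95% interval that held 0, with the error computed as if the copies were independent. That error ranged from 0.56 for sox9 to 1.67 for sox10 at stage 14. Over all homeolog pairs, 9.06% of 5333 at stage 14 and 8.67% of 5353 at stage 17 gave an interval without 0. Reads of near-identical copies may have been split between them, so a single copy is less certain than the pair.

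The weight of the copies differed between stages for sox8. In the denominator arm sox8.L made up 95.8% of the reads of the pair at stage 14 and 70.7% at stage 17. The .S to .L ratio was 9.52 times as high at stage 17, a log2 shift of -3.25 in .L over .S, where the median absolute shift of 3476 pairs was 0.42 and 16 pairs had a larger one. Being a ratio within each table, this shift does not rest on how the tables were scaled. For sox9 the .L share of the denominator arm was 11.3% at stage 14 and 16.4% at stage 17. For sox10 it was 37.4% and 52.4%, so that the copies contributed about equally at the later stage.

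The sox8 rows had large errors at stage 17, as did several other neural crest genes. Among the 412 other genes within a factor of 2 of the mean of sox8.L, 2 had a larger SE than its 0.92, and the median SE was 0.24 per the authors' deposited table. For sox8.S, 10 of 1660 such genes had a larger SE than 0.85, with a median of 0.26. The SE grows with the spread among samples of an arm, and the samples behind these values were not examined. All 6 SoxE genes had an SE above the median of genes of similar mean at both stages. So did 16 of 17 neural crest specifier genes at each stage, listed with the gene groups. At stage 17 the SE was 1.03 for foxd3.L, 0.91 for tfap2b.S, 0.90 for tfap2b.L and 0.87 for foxd3.S per the authors' deposited table, and 99.2% to 99.7% of genes of similar mean had a smaller one, against 99.5% for sox8.L and 99.4% for sox8.S.

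**Figure D4:**
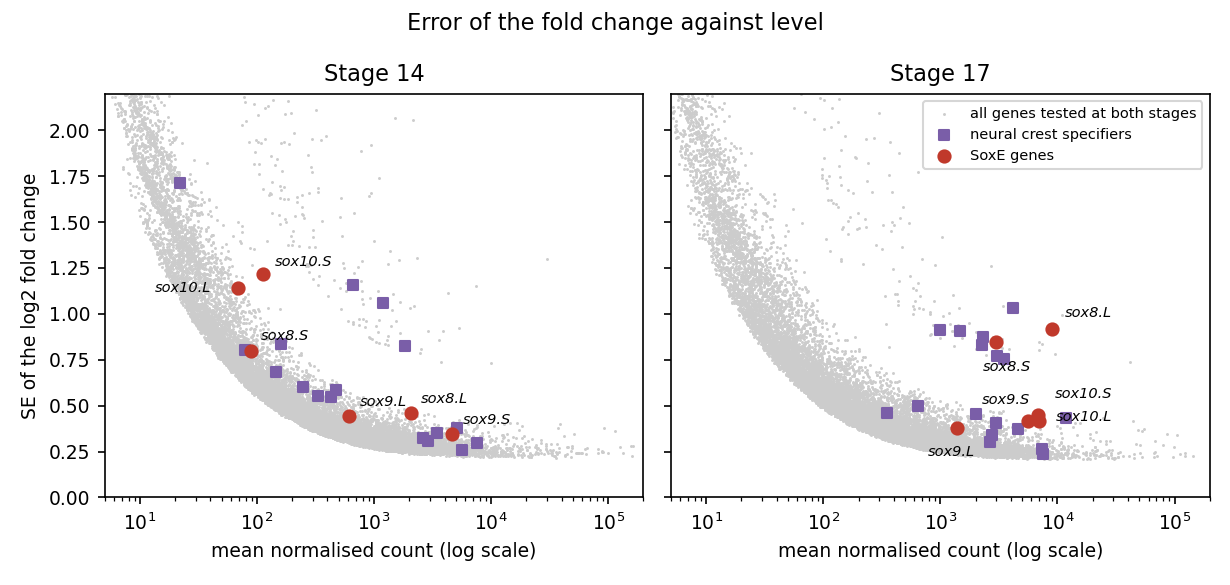
SE of the log2 fold change against the mean normalised count (log scale) at both stages, from the authors' deposited tables, for SoxE genes (red), neural crest specifiers (purple) and all genes tested at both stages (grey); the vertical axis ends at 2.2. At stage 17 the points of sox8.L and sox8.S, at 0.92 and 0.85, lie far above most genes of similar mean.

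Of 12 differences in log2 fold change between the 3 genes, taken within a copy and a stage, 3 had an interval without 0. Each of them set sox10 below another gene. At stage 14 the value of sox9.S was above that of sox10.S by 4.24, with an interval from 1.77 to 6.72, and that of sox8.S by 3.74, with an interval from 0.89 to 6.60. With the arm of sox10.S set to the floor these differences were 3.14 and 2.64, for which no interval is given. For the .L copies at stage 14 both intervals held 0. The value of sox9.L was above that of sox10.L by 2.39, with an interval from -0.01 to 4.79. That of sox8.L was above it by 1.52, with an interval from -0.89 to 3.93. At stage 14 sox8.L and sox9.L differed by -0.87 (SE 0.64, computed as if independent), with an interval from -2.12 to 0.38. For sox8.S and sox9.S the difference was -0.50 (SE 0.87). At stage 17 sox10.L had a more negative log2 fold change than sox9.L, with an interval for the gap from 0.86 to 3.06 (SE 0.56). For the .S copies the corresponding value was 0.76 (SE 0.61), with an interval that starts at -0.45 and holds 0. Genes of 1 table share their libraries, and these differences were not tested.

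Genes with the most similar pattern were sought by the Euclidean distance over 3 values: the log2 fold change at each stage and the log2 ratio of the mean counts, among the 11886 genes. The copy with more reads at stage 17 stood for each gene. Nearest to sox8.L were ets1.S at a distance of 0.45, tlx3.L at 0.47 and tfap2b.L at 0.49, against a median of 4.28 over all genes. Of these, ets1 and tfap2b encode neural crest transcription factors and tlx3 a homeobox factor of sensory neurons. Nearest to sox9.S were notch2.S, encoding a Notch receptor, at 0.12, then kif17.L, a kinesin motor, at 0.18 and vill.S, a villin-like protein, at 0.26. Nearest to sox10.L were sox8.S at 2.17, pcdh8l.S, a protocadherin-like gene, at 2.36 and its own homeolog sox10.S at 2.48. With arms under the floor set to it, sox10.S was the nearest, at 1.4999, and the other genes named here kept their order. The distances for sox10.L are several times longer because few genes combined such fold changes with such a ratio between stages. The homeologs of the other genes ranked further down, with arms as deposited. From sox8.L, sox8.S ranked number 1243 at a distance of 3.20, and from sox9.S, sox9.L ranked number 178 at 1.24. The pattern rests on 3 values from 2 comparisons. The distances take no account of the SEs. For tlx3.L the authors' deposited tables gave -3.23 (SE 1.93; authors' adjusted p = 0.368) at stage 14 and -0.75 (SE 0.44; authors' adjusted p = 0.331) at stage 17. The SE of sox8.L at stage 17 was 0.92. These errors are mostly larger than the distances around sox8.L, so the order of its nearest genes is uncertain. The same holds for sox9.S, whose SEs of 0.35 at stage 14 and 0.42 at stage 17 exceed its distances. For sox10.L the SE at stage 14 was 1.14, more than the gaps between its distances.

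Other neural crest specifiers were mostly negative too. Of 17 rows tested of the list (snai1, snai2, foxd3, twist1, ets1, tfap2b, tfap2e, myc and id3), 12 passed the threshold at stage 14, all negative, with a median of -2.30 beside 0.02 over all genes per the authors' deposited table. At stage 17 it was 4 of 17, again all negative, with a median of -0.84, where 8.68% and 9.96% of all genes tested passed at the respective stage. The list medians given here stayed the same when arms under the floor were set to it. Among them, tfap2b.L, an AP-2 factor gene, had -3.79 (SE 0.55; authors' adjusted p = 8.09e-10) at stage 14 per the authors' deposited table. The AP-2 gene tfap2e.S had -3.25 (SE 0.59) at stage 14 and -1.70 (SE 0.45; authors' adjusted p = 0.00420) at stage 17 per the authors' deposited tables. For myc.L, which encodes a growth regulator active in early crest, the authors' deposited tables gave -2.16 (SE 0.35) at stage 14 and -0.08 (SE 0.37) at stage 17. Like sox9, myc.L differed between stages, by 2.09 (adjusted p = 0.00735 in the test on the DESeq2 tables). For ets1.S the authors' deposited tables gave -3.20 (SE 1.15; authors' adjusted p = 0.0610) at stage 14 and -1.29 (SE 0.40; authors' adjusted p = 0.0201) at stage 17. Both copies of id3, a dominant-negative helix-loop-helix factor gene, lay between -0.18 and 0.13 at both stages per the authors' deposited tables.

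Neural plate border genes, which act before SoxE genes in crest formation, passed the threshold with opposite signs at the 2 stages. The rows that passed were mostly different ones, and the signs compare only if the numerator is the same arm at both stages. Of 19 rows tested at stage 14, 8 passed the threshold, all negative, and of 20 at stage 17, 10 passed, all positive, per the authors' deposited tables. Their medians were -0.88 and 0.84, and 8.68% and 9.96% of all genes tested passed at the respective stage. Of this list, only the homeobox gene rows msx2.L and msx1.S passed the threshold at both stages. Per the authors' deposited tables, msx2.L went from -1.56 (SE 0.27) to 1.05 (SE 0.32), and msx1.S from -1.60 (SE 0.31) to 1.10 (SE 0.30). The AP-2 gene tfap2a.S had -1.35 (SE 0.23; authors' adjusted p = 6.70e-07) at stage 14 and -0.54 (SE 0.23; authors' adjusted p = 0.135) at stage 17 per the authors' deposited tables. For zic1.S, a zinc finger gene of the border and neural plate, the authors' deposited tables gave 0.62 (SE 0.28) at stage 14 and 3.72 (SE 0.46; authors' adjusted p = 7.11e-13) at stage 17.

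Among genes of the secreted signals that induce crest, and of their modulators, 7 of 15 rows tested passed the threshold at stage 17, all positive, with a median of 1.54, against 1 of 15 at stage 14, with a median of 0.05, per the authors' deposited tables. For fgf3.L, encoding a fibroblast growth factor, the authors' deposited table gave 4.91 (SE 0.91; authors' adjusted p = 6.18e-06) at stage 17. The denominator arm of fgf3.S lay under the floor there, and the numerator arm exceeded it at least 94.4-fold. For fgf8.S the authors' deposited table gave 4.70 (SE 0.88; authors' adjusted p = 7.73e-06) at stage 17. At stage 14 the gene that passed was bmp4.S, encoding a bone morphogenetic protein, at 1.67 (SE 0.40; authors' adjusted p = 0.00109) per the authors' deposited table. No gene of this list passed in the negative direction at either stage. Of all genes tested, 8.68% passed at stage 14 and 9.96% at stage 17, with 5.62% and 5% as negative.

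Genes known to act downstream of SoxE factors in pigment cells, glia, autonomic neurons and cartilage moved both ways. At stage 14, 1 of 14 rows tested passed as positive and 2 as negative, with a median of 0.51, beside 8.68% of all genes. At stage 17, 3 of 15 passed as positive and 2 as negative, with a median of 0.23, beside 9.96%, per the authors' deposited tables. Lower in the numerator arm, as the SoxE genes were, was erbb3.L, encoding a neuregulin receptor of crest and glia, at -2.51 (SE 0.82; authors' adjusted p = 0.0302) and -1.33 (SE 0.40; authors' adjusted p = 0.0128) per the authors' deposited tables. The endothelin receptor gene ednra.S had -2.23 (SE 0.64; authors' adjusted p = 0.00959) at stage 14 and -1.01 (SE 0.36; authors' adjusted p = 0.0561) at stage 17 per the authors' deposited tables. For mitf.S, encoding the regulator of pigment cells, the numerator arm lay under the floor at stage 17, and its level was lower there by a factor of at least 12.42 (adjusted p = 0.0130 per the authors' deposited table).

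The rows of this list that passed as positive were pmel.S at stage 14, and pmel.S, pmel.L and tyrp1.L at stage 17. The authors' deposited tables gave pmel.S, encoding a melanosome matrix protein, 1.16 (SE 0.31; authors' adjusted p = 0.00454) at stage 14 and 2.98 (SE 0.38; authors' adjusted p = 2.96e-12) at stage 17. The copy pmel.L had 1.19 (SE 0.33; authors' adjusted p = 0.00736) at stage 17 and tyrp1.L, a pigment enzyme gene, 2.03 (SE 0.61; authors' adjusted p = 0.0149), per the authors' deposited table. Of 17 genes named for this list, 8 at stage 14 and 5 at stage 17 were not analysed here, tyr, acan and matn1 among them at both stages.

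Partner genes of SoxE factors passed the threshold in 0 of 22 rows at stage 14 and 3 of 22 at stage 17, beside 8.68% and 9.96% of all genes tested. The list held SoxD genes, whose products work beside Sox9 on cartilage genes, and genes for attaching SUMO, a small protein tag that alters SoxE activity in Xenopus. At stage 14, 2 of the 22 rows had an unadjusted p-value under 0.05 in the authors' DESeq2 table. At stage 17, 1 passed as positive and 2 as negative per the authors' deposited table. The negative ones were sox5.L at -1.42 (SE 0.41; authors' adjusted p = 0.0108) and sox5.S at -1.32 (SE 0.42; authors' adjusted p = 0.0226) per the authors' deposited table. Both copies of sox5 were thus lower in the numerator arm at stage 17, on the side of sox10, while at stage 14 they stood at 0.71 and 0.66, each within its SE of 0.

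At stage 17 the other Sox genes that passed the threshold were mostly positive. Of 20 rows tested at stage 14, 2 passed as positive and 0 as negative, near the 8.68% of all genes tested. At stage 17, 7 of 20 passed as positive and 2, the sox5 copies, as negative, beside 9.96% of all genes, per the authors' deposited tables. Positive at stage 17 were the SoxB1 genes of the neural plate, sox1, sox2 and sox3. The authors' deposited table gave sox3.S 4.06 (SE 0.35; authors' adjusted p = 6.08e-28) and sox1.L 3.37 (SE 0.90; authors' adjusted p = 0.00443) there. The denominator arm of sox1.S lay under the floor at stage 17, and the numerator arm exceeded it at least 23.2-fold (adjusted p = 0.00152 per the authors' deposited table). The SoxB2 gene sox21.L had 2.65 (SE 0.47; authors' adjusted p = 2.50e-06) and the SoxC gene sox11.S 1.12 (SE 0.24; authors' adjusted p = 1.36e-04) at stage 17 per the authors' deposited table. The SoxF genes sox7.L and sox7.S had negative values at stage 14, -3.52 (SE 1.25) and -2.87 (SE 1.02), that did not pass, with adjusted p-values of 0.0537 and 0.0556 per the authors' deposited table.

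**Figure D5:**
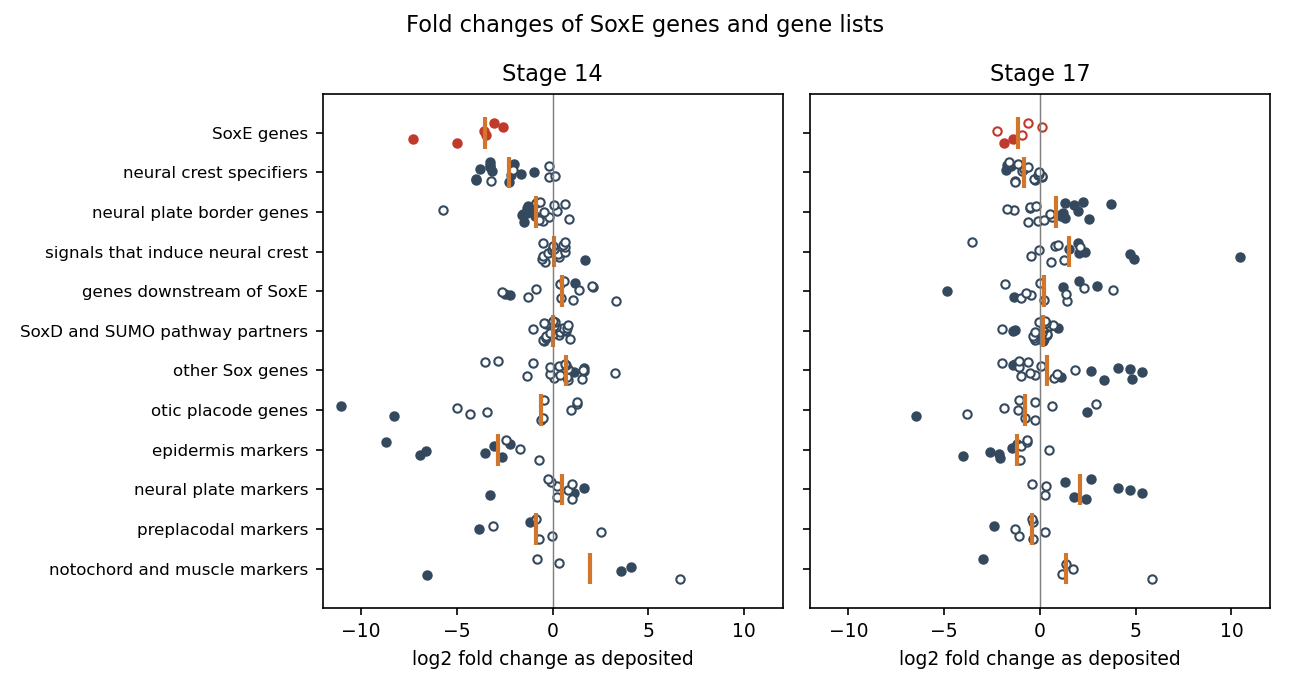
Log2 fold change of the SoxE genes (red) and of the genes of each list (dark points) at both stages, from the authors' deposited tables; filled points have an adjusted p-value under 0.05, orange bars are list medians and the horizontal axis ends at 12 on either side. Neural crest specifiers are mostly negative at both stages, with medians of -2.30 and -0.84 beside -3.52 and -1.16 for the SoxE genes. Border genes have medians of -0.88 at stage 14 and 0.84 at stage 17.

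Because SoxE genes also mark the otic placode, otic genes were counted. Of 11 rows tested, 2 passed the threshold as negative at stage 14, beside 8.68% of all genes tested. At stage 17, 1 of 11 passed as positive and 1 as negative, beside 9.96%, per the authors' deposited tables. The numerator arm of pax8.S, encoding an early otic and kidney factor, was under the floor at stage 14, lower than the denominator arm by a factor of at least 135. For hmx2.S, an inner ear homeobox gene, it was under the floor at both stages and at least 19.5-fold and 9.42-fold lower. The otic gene pax2.L, which is also expressed at the midbrain-hindbrain boundary, had 2.45 (SE 0.66; authors' adjusted p = 0.00509) at stage 17 per the authors' deposited table. The reads of SoxE genes from crest and from otic cells cannot be told apart in these tables.

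Markers of other cell types moved with the arms as well, and their part in the SoxE results was not tested. The marker counts below stand beside 8.68% of all genes tested that passed at stage 14 and 9.96% at stage 17. The crest markers snai2, foxd3 and twist1 were detected in both copies at both stages, at means from 79.5 to 11745 normalised counts per the authors' deposited tables, and epidermis markers were abundant too. Of the epidermis markers 7 of 10 tested passed at stage 14 and 6 of 11 at stage 17, all negative, per the authors' deposited tables. Their summed level was 25444 normalised counts in the numerator arm against 153967 in the denominator arm at stage 14, and 61927 against 185016 at stage 17. Neural plate markers passed as positive in 2 and as negative in 1 (nrp1.L) of 10 at stage 14, and as positive in 7 of 10 at stage 17. Their summed level was 30398 against 20305, and then 26226 against 8791. For preplacodal markers, of which 2 of 7 and 1 of 7 passed, all negative, the sums were 1191 against 2420, and 1728 against 2584. No marker of the epidermis, neural plate or preplacodal lists was under the floor in both arms. Notochord and muscle markers were scarce, tbxt.L being under the floor in both arms at stage 17, with sums of 543 against 135 at stage 14 and 114 against 107 at stage 17. Of 6 tested at stage 14, 2 passed as positive and 1 as negative, and of 5 at stage 17, 1 passed as negative. The sclerotome genes pax1, pax9 and nkx3-2 were not analysed here.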

How the data were processed

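RNA of Xenopus laevis tissue labelled neural crest was sequenced from unstranded libraries, per the labels' protocols, so reads of overlapping or antisense genes are less certain. STAR 2.7.3a and DESeq2 are named in the submitters' processing notes, and genome build, annotation, counter and filters are not given in the sources used here. The authors deposited 1 table of results per stage. Per the file headers these hold a mean normalised count (a signal scaled between libraries), a log2 fold change and its SE, a score that is their quotient, and p-values before and after adjustment. The authors' DESeq2 adjustment was used as deposited. From these values arm levels, intervals, homeolog and stage differences, list counts and distances were computed in Python 3.11.15 with pandas 2.3.3, NumPy 2.4.6 and SciPy 1.17.1, and the stage test was tested on simulated data. Depth per library is unknown. The adjusted p-values imply an adjustment over 17088 genes at stage 14 and 22197 at stage 17, more than the 16965 with an adjusted p-value there.

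Members and lists were chosen with earlier results of these data known. Genes named in the text were the 6 members, fixed comparators (snai2, foxd3, sox2 and sox3), up to 3 genes per list and stage with the lowest p-values past the threshold, and the 3 nearest patterns per gene. Other names (mitf.S, tyrp1.L, sox1, sox7, sox11.S, sox21.L, tbxt.L, twist1, id3, and pairs of a named copy) were chosen after their values were seen. Some genes of the lists are not reported here. Symbols matched RefSeq (Xenopus_laevis_v10.1) for 18129 of 18206 and 18481 of 18556 rows, and no coordinates are given since the authors' build is unknown here. Alternatives were other thresholds, adjustments and scalings.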

Additional observations from a re-analysis of the deposited data

Results flagged for a closer look

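For 3 SoxE genes the effect of the arms differed between the stages, by a test of the difference itself (normal test on the SEs of the authors' DESeq2 tables, Benjamini-Hochberg over 16194 genes). For sox9.L the log2 fold change was more positive at stage 17 than at stage 14 by 2.69 (adjusted p = 9.96e-04 on the DESeq2 tables). For sox9.S it was more positive by 2.44 (adjusted p = 0.00171 on the DESeq2 tables). For sox10.S it was more positive by 5.93 (adjusted p = 0.00138 on the DESeq2 tables), or by 4.83 with the lower arm at stage 14 set to the floor. Stage and batch label coincide, so a comparison within batches is not possible. The test also takes the same arm as numerator at both stages, which is not recorded.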

How the results depend on the processing

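The 12 SoxE fold changes were judged again under 5 settings. Thresholds were 0.01 and 0.10. Adjustments were over all p-values of a table and over the upper 75% of genes by mean count. The last setting centred fold changes on the median of all genes. In 58 of these 60 cases the side of the threshold stayed the same. Only centring alters the fold change itself, by the median of 0.02 at stage 14 and -0.003 at stage 17. No sign changed, but the other settings could not have changed one. At a threshold of 0.01, sox10.S at stage 17 (-1.38, adjusted p = 0.0284 in the authors' DESeq2 table) no longer passed, which left 1 SoxE gene at that stage. At 0.10, sox8.S at stage 17 (-2.22, adjusted p = 0.0762 in the authors' DESeq2 table) passed as well. The counts of 6 at stage 14 and of 3 for the difference between stages were the same under the alternatives run. The stage 17 over stage 14 ratios of the denominator arm carry no error. Scaling both tables to the same total multiplied each by 1.17, to 3.68 for sox8.L, 35.0 for sox8.S, 1.48 for sox9.L, 0.961 for sox9.S, 96.0 for sox10.L and 52.1 for sox10.S. Scaling to a median ratio of 1 multiplied each by 1.07, to 3.35, 31.9, 1.35, 0.876, 87.6 and 47.5 in the same order. In the numerator arm the ratios were 18.3 for sox8.L, 75.7 for sox8.S, 8.18 for sox9.L, 4.44 for sox9.S, 712 for sox10.L and at least 1259 for sox10.S, since that arm was lower at stage 14. Setting arms under the floor to it was chosen after seeing the data, and it changed the sox10 homeolog difference at stage 14 from 2.32 to 1.22. No sample could be left out, because values per sample were not analysed here. No title number occurs in more than 1 group, and the sources used here do not say whether samples of different groups share a clutch. No paired analysis was therefore run. Low reads limit sox10 at stage 14, and large errors limit sox8 at stage 17.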

Other observations

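The genes beside SoxE genes in the RefSeq annotation were looked up after the SoxE values were known. Next to both copies of sox8 lies sstr5, encoding a somatostatin receptor. In the authors' deposited tables the log2 fold change of sstr5.S was -4.22 (SE 1.31; authors' adjusted p = 0.0200) at stage 14 and -1.997 (SE 0.59; authors' adjusted p = 0.0118) at stage 17, at means of 44.1 and 96.7 normalised counts. The copy sstr5.L did not pass at either stage (adjusted p = 0.230 and 0.234 in the authors' DESeq2 tables). Its numerator arm lay under the floor at both stages, and its mean at stage 14 was 6.09 normalised counts. On the other side of sox8.L, lmf1.L did not pass at either stage (adjusted p = 0.272 and 0.944 in the authors' DESeq2 tables). Next to both copies of sox10 lies polr2f, encoding an RNA polymerase subunit, whose log2 fold changes lay between -0.26 and 0.38 with adjusted p-values from 0.634 to 0.964 in the authors' DESeq2 tables. Beyond sox10.S lies baiap2l2.S, with 8.81 mean normalised counts at stage 17 (adjusted p = 0.0413 in the authors' DESeq2 table), with its numerator arm under the floor.

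Genes beside SoxE with the largest stage 17 over stage 14 ratios in the denominator arm were named after their values were seen. They were ranked among the 11886 genes with a mean of at least 50 normalised counts at both stages. Between sox10.S and sox8.S stood palm.L, a membrane phosphoprotein gene, at 34.8 and the growth regulator gene mycn.S at 30.7. Both had negative log2 fold changes at stage 17 per the authors' deposited table, -2.45 (SE 0.43; authors' adjusted p = 1.91e-06) for palm.L and -2.03 (SE 0.38; authors' adjusted p = 6.48e-06) for mycn.S. The denominator arm of stage 17 enters both the ranking and these values, so the ranking favours a negative sign. At stage 14 neither passed, at 1.56 (SE 1.13) for palm.L and -0.54 (SE 1.06) for mycn.S. Further down, hectd4.L had a ratio of 20.6, pcdh8l.S 20.1 and twist1.L, a crest transcription factor gene, 17.7. At stage 14 hectd4.L was positive, at 2.45 (SE 0.84; authors' adjusted p = 0.0420) per the authors' deposited table. Its denominator arm stood at 30.5 normalised counts there, so the mean of 50 was reached only through the numerator arm, at 167. For palm.L the denominator arm was at 25.6 and the numerator arm at 75.5. The selection thus fixed these positive signs, and they are no contrast to the SoxE genes.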
